A study of Mus musculus with 10 samples.

Results

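Igf2bp1, Igf2bp2, Igf2bp3, Lin28a, Lin28b, Hmga1, Hmga2 and Afp are genes that embryonic tissues and many tumours use strongly. Most of them are used little in most adult tissues. These 8 genes were chosen by name and were measured by 14 probes, of 18539 named genes and 41174 probes on the array. Their values came from 10 microarrays, each read in 2 colours, and every probe of every member is described below, whether or not it gave a signal. Each array held RNA from 1 mouse hemibrain in the Cy-5 dye and a second RNA in the Cy-3 dye. The values are the log2 of the Cy-5 signal over the Cy-3 signal, so that a ratio of -1 is a 2-fold higher signal in Cy-3. A probe is called detected in a dye where the scanner software flagged its spot as well above background, that is, brighter than its surroundings by more than their noise.

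The study asked how a fish oil diet rich in n-3 PUFA (FD), compared with a standard lab diet (SD), changed transcripts in the brain. The mice were male C57BL/6J, were put on their diets at 3 weeks of age for 20 weeks and were 5 months old at collection, and only left hemibrains were used. The labels give FD for the Cy-5 RNA of all 10 arrays and SD for the Cy-3 RNA, which they call a pool of hemibrains, whereas the study's methods name a commercial reference RNA in Cy-3 and 4 FD and 3 SD mice in Cy-5. Because these sources differ, no array was assigned to a diet, no diets were compared, and the 10 arrays (C10-413 to C10-437) are given one by one. All arrays had the same dye orientation, so a preference of a probe for one dye and a difference between the RNAs cannot be told apart.

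The cell type markers went against a hemibrain pool in Cy-3. All 6 neuron genes (among them Snap25, Syt1 and Gad1), all 4 astrocyte genes and all 4 oligodendrocyte genes were above a log2 ratio of 1 on every array, with list medians of 5.53, 6.30 and 5.36. Of the microglia, endothelium and erythroid genes 2 of 3 each were above 1 on every array. For the cell division genes the order was opposite, with 9 of 10 below -1 on every array and a list median of -4.38. The Cy-3 RNA is therefore called by its dye here. Of the arrays, C10-434 stood apart: its median background-subtracted Cy-5 signal was 28.5 intensity units, against 60.0 to 171 on the others, and 49.8% of its probes were detected in Cy-5, against 68.2% to 76.9% elsewhere. Log2 ratios of all probes correlated between arrays with r from 0.870 to 0.967.

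Most members, though not Afp, are linked by let-7, a family of small RNAs that accumulates as cells differentiate. This family lowers the output of mRNAs carrying its binding sites. LIN28A and LIN28B bind let-7 precursors and block their maturation. In turn, the mRNAs of Lin28a, Lin28b, Hmga2 and the Igf2bp genes are known let-7 targets. The IGF2BP proteins bind and stabilise mRNAs such as Myc and Igf2 in fetal cells, the HMGA proteins bend AT-rich DNA and open chromatin, and AFP is the main plasma protein of the fetus, made in yolk sac and fetal liver. In the adult brain most of them are known for low expression.

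The arrays did not measure mature let-7. Its sequences are shown because the shared seed, the part that pairs with target mRNAs, defines the family that links most members. They are from RefSeq (build GRCm38.p6), written 5′ to 3′ with the seed (bases 2 to 8) in capitals. let-7a, let-7c and let-7f are each held by 2 hairpins in the genome, and the position of 1 copy is given.
let-7a-5p (chr13:48538239-48538260, minus strand): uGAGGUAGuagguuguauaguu
let-7b-5p (chr15:85707325-85707346, plus strand): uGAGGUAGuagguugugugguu
let-7c-5p (chr15:85706616-85706637, plus strand): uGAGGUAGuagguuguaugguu
let-7d-5p (chr13:48536078-48536099, minus strand): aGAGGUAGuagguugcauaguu
let-7e-5p (chr17:17830366-17830387, plus strand): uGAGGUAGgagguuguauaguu
let-7f-5p (chr13:48537889-48537910, minus strand): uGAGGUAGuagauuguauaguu
let-7g-5p (chr9:106178846-106178867, plus strand): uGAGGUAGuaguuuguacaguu
let-7i-5p (chr10:122985698-122985719, minus strand): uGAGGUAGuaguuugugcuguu
miR-98-5p (chrX:151913229-151913250, plus strand): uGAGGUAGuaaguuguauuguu
All 9 mature forms held the same seed, GAGGUAG, which pairs with CUACCUC in an mRNA, and they differed only outside it.

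Across the members, 6 of the 8 genes had more signal in Cy-3 than in hemibrain RNA, 1 had more signal in hemibrain RNA and 1 was not detected. By the brightest probe, 15.8% of all 18190 genes tested were below a log2 ratio of -1 on every array and 16.2% above 1, as were 6 and 1 of the members. By probe, 11 of 14 were below a log2 ratio of -1 on every array with a value, against 14.2% of the 40749 probes tested, and 1 of 14 was above 1, against 12.7%. At a log2 limit of 2 these counts were 9 and 0, against 5.76% and 7.57% of all probes. Among probes detected in at least 1 dye on every array, 21% were below -1. Members were detected in Cy-3 on all arrays for 11 of 14 probes (60.9% of all probes) and in Cy-5 on all arrays for 4 of 14 (49.4%). The median over all probes was 0.04, with 5% of probes below -2.86. By the brightest probe of each gene, the order of the medians ran from Igf2bp2 (-5.83), Afp (-5.70), Hmga2 (-5.55) and Igf2bp3 (-5.54) through Igf2bp1 (-2.73) and Hmga1 (-1.73) to Lin28a (0.09) and Lin28b (1.94). The first 4 overlapped in their ranges over the arrays, and so did Lin28a and Lin28b. Igf2bp1 overlapped neither Igf2bp3 above it in this order nor Hmga1 below it. The order of Igf2bp1 and Hmga1 reversed with the normexp background correction given below.

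**Figure D1:**
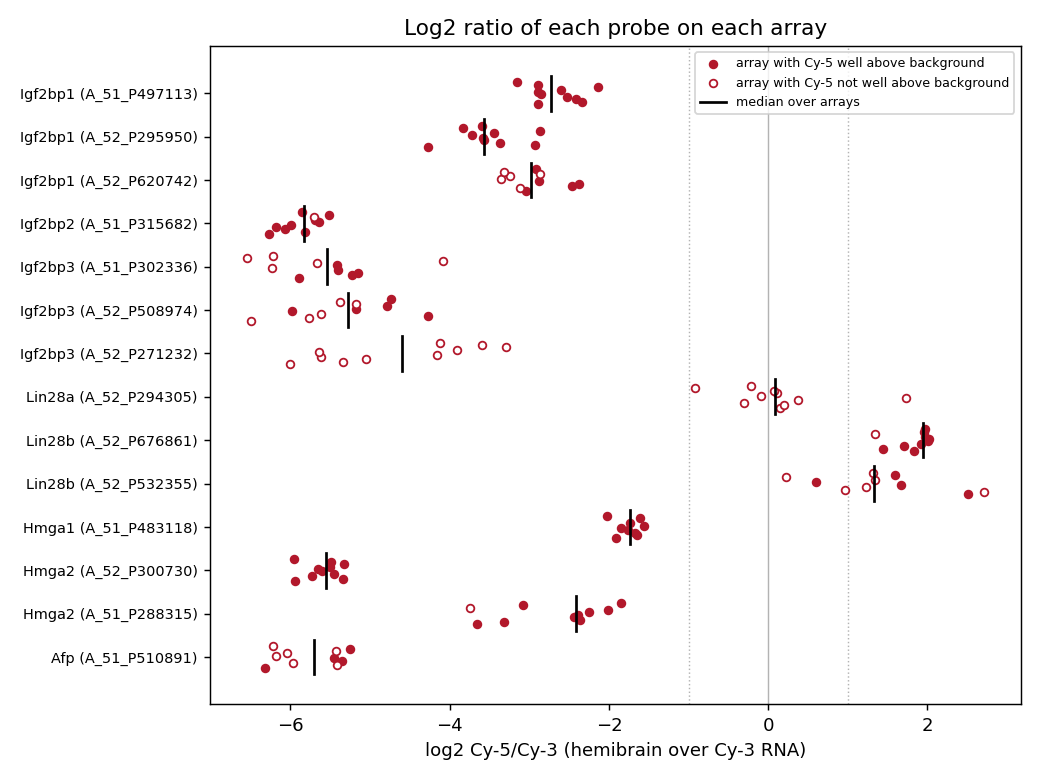
Log2 Cy-5/Cy-3 (x axis) of the 14 member probes (rows) on each array (points), filled where Cy-5 was detected and open where it was not, with the median as a black bar and dotted lines at -1 and 1. The Igf2bp, Hmga and Afp probes lie left of -1 on every array, Lin28a lies around 0 with open points only, and Lin28b lies to the right.

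**Figure D2:**
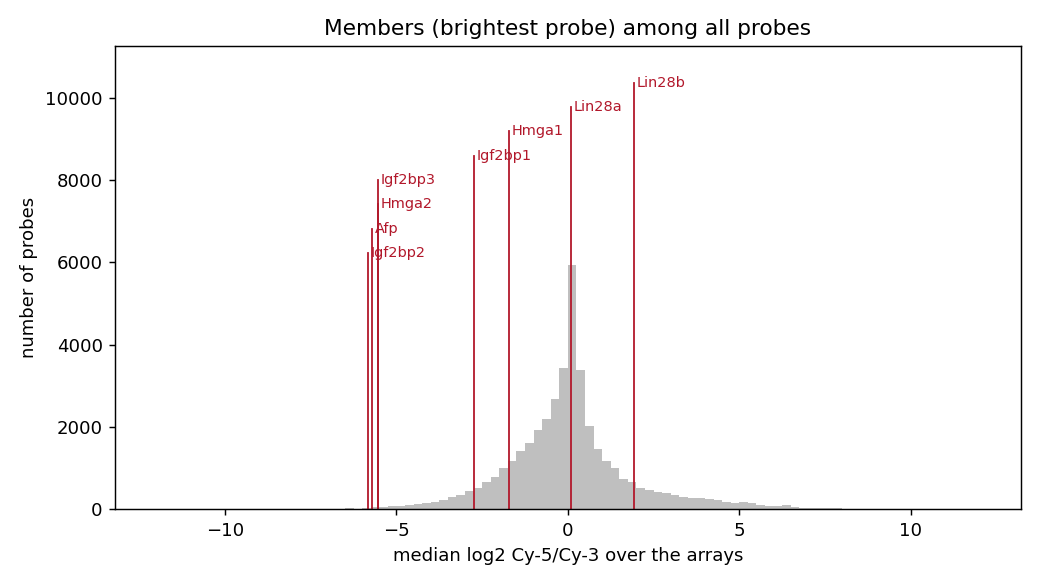
Number of probes (y axis) by median log2 Cy-5/Cy-3 over the arrays (x axis), with the brightest probe of each member as a line whose height only separates the names. Igf2bp2, Afp, Hmga2 and Igf2bp3 lie below -5, where 0.729% of all probes lie.

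Of the genes for the LIN28 proteins, the inhibitors of let-7, Lin28a was detected in neither dye and has no readable direction. Lin28b was the only member with more signal in hemibrain RNA. For Lin28b, probe A_52_P676861 had log2 ratios of 1.83, 1.44, 1.70, 1.92, 2.003, 2.01, 1.97, 1.34, 1.96 and 1.97 on C10-413, C10-415, C10-416, C10-417, C10-423, C10-424, C10-425, C10-434, C10-435 and C10-437. The hemibrain signal was 3.83-fold higher at the median, and higher on each of the 9 arrays with both dyes detected. The Cy-5 signal ran from 89.0 to 557 intensity units and the Cy-3 signal from 35.0 to 139. Neither dye was detected on C10-434. Lin28b was no extreme of the array: 88.0% of probes had a lower median. The second Lin28b probe, A_52_P532355, had a median log2 ratio of 1.33 and a range from 0.22 to 2.71, and was detected on 4 arrays in Cy-5 and on 1 array in Cy-3. On 6 arrays neither dye of that probe was detected, so its ratios there have no readable direction, and on the 1 array with both detected the ratio was 0.60. The ratios of the probes correlated with r = 0.00 over 10 arrays and -0.60 without C10-434.

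Lin28a, the paralogue known from stem cells, was detected in neither dye on any of the 10 arrays, as for 12% of all probes. Its signals were 7.73 to 20.8 in Cy-3 and 9.10 to 26.5 in Cy-5. Those values were below the dimmest detected signal of each array, which ran from 32.5 to 65.7 in Cy-3 and from 37.4 to 125 in Cy-5. The log2 ratio (median 0.09, from -0.92 to 1.73) therefore had no readable direction, and a difference between the RNAs was not detectable at this signal.

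The Igf2bp genes, which encode the mRNA-binding proteins and are let-7 targets, were all higher in Cy-3, by different amounts. Igf2bp2 had log2 ratios of -6.27, -5.82, -6.07, -6.17, -5.99, -5.64, -5.68, -5.71, -5.51 and -5.85, in the array order above. No array came near 0, and at the median the Cy-3 signal was 57.0-fold the hemibrain signal, with 0.265% of all probes lower. The Cy-3 signal was 4539 to 11443 intensity units and the Cy-5 signal 86.8 to 196, and Cy-5 was detected on 9 arrays, all but C10-434. Hemibrain RNA thus gave a readable Igf2bp2 signal.

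Igf2bp1 had the smallest difference of the Igf2bp genes, and its 3 probes differed in size but not in direction. The brightest, A_51_P497113, had a lowest log2 ratio of -3.15, a median of -2.73 and a highest of -2.14, a 6.63-fold higher Cy-3 signal at the median. Probe A_52_P295950 had a median of -3.57 (from -4.27 to -2.87) and A_52_P620742 of -2.98 (from -3.36 to -2.38). The first and second were detected in both dyes on all 10 arrays, and the third in Cy-5 on 5. By the flags, Igf2bp1 was thus detected in every hemibrain. For the first probe, the Cy-5 signal was 389 to 672 intensity units, a 1.73-fold range over the arrays, and the Cy-3 signal had a 2.32-fold range. These signals were not scaled between arrays. On every array the brightest probe had a higher ratio than A_52_P295950, by a median of 0.83.

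Igf2bp3 was near the detection limit in hemibrain RNA. Its brightest probe, A_51_P302336, had a lowest log2 ratio of -6.54, a median of -5.54 and a highest of -4.08. The Cy-3 signal was 1384 to 3816 intensity units and the Cy-5 signal 27.5 to 82.9. On the 5 arrays with Cy-5 detected the median log2 ratio was -5.41, a 42.4-fold higher Cy-3 signal, and on the other 5 Cy-3 was at least 11.1-fold to at least 75.1-fold higher. A_52_P508974 gave a median of -5.28 (from -6.50 to -4.27), and of -4.79 over the 5 arrays with Cy-5 detected. A_52_P271232 was detected in Cy-3 on all arrays and in Cy-5 on none, a pattern shared by 1.02% of all probes. For this probe only a bound can be given, set against the dimmest detected Cy-5 signal of the same array or the probe's own Cy-5 signal, whichever was higher: Cy-3 was at least 2.90-fold to at least 17.8-fold higher by array. From the means over arrays, after quantile scaling between arrays, it was at least 9.93-fold higher. The 3 probes agreed in direction, while the correlation of their ratios over the arrays was between -0.01 and 0.37, so differences between mice in Igf2bp3 could not be read from them.

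**Figure D3:**
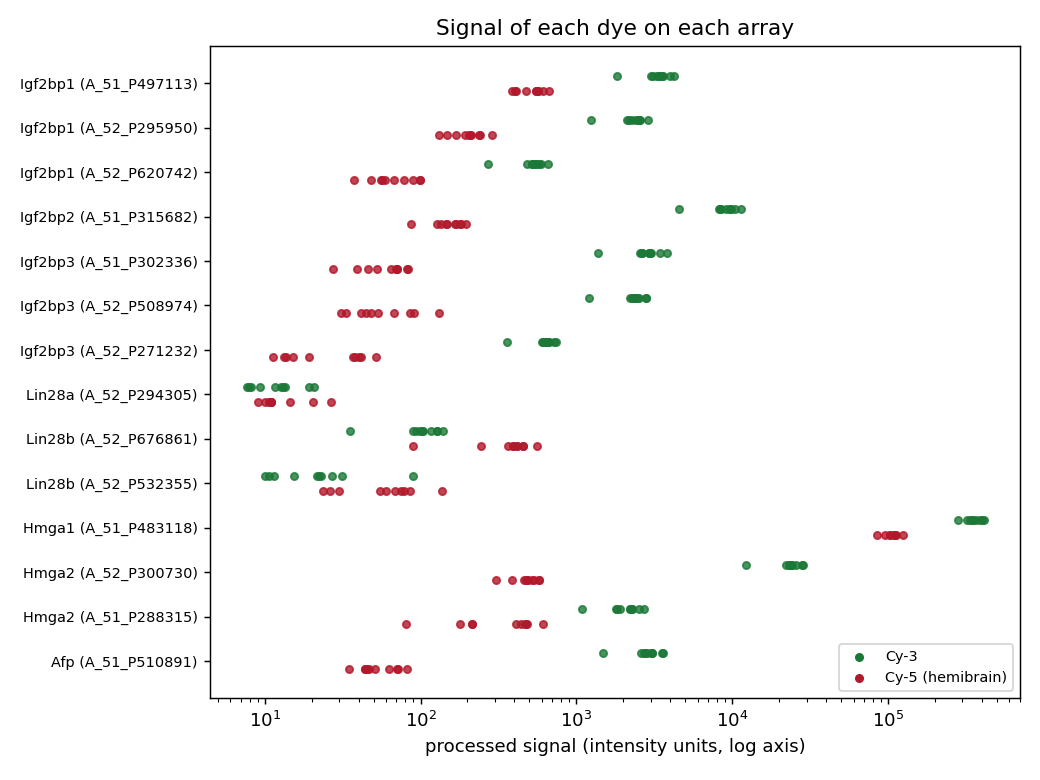
Processed signal (x axis, log scale, intensity units) of each member probe (rows) in Cy-3 (green) and Cy-5 (red), 1 point per array; only the dyes of 1 probe can be compared, not 1 probe with another. For Igf2bp2, Igf2bp3, Afp and the upper Hmga2 probe the colours are far apart, for Lin28a they overlap, and for Lin28b red lies to the right.

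The Hmga genes encode chromatin proteins with AT-hooks, small stretches that grip the minor groove of AT-rich DNA. Hmga2 is the classic let-7 target with several sites in its 3′ UTR. Its probe A_52_P300730 had log2 ratios of -5.94, -5.34, -5.72, -5.45, -5.61, -5.65, -5.50, -5.32, -5.49 and -5.95, in the same array order. These values lay within 0.63 of each other, the narrowest spread among the members below -5. The Cy-3 signal was 46.9-fold higher at the median (12289 to 28236 against 307 to 580 intensity units), and both dyes were detected on all 10 arrays. Hmga2 RNA was thus measurable in each hemibrain by this probe.

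The second Hmga2 probe, A_51_P288315, had log2 ratios of -3.65, -3.31, -2.37, -2.44, -2.39, -2.25, -2.02, -3.75, -3.08 and -1.85. It had the same direction on every array but a smaller difference, 5.32-fold at the median, and the first probe's ratio minus its own was from -4.11 to -1.58 over the arrays. Its Cy-5 signal was 215, 180, 444, 409, 481, 474, 470, 81.0, 215 and 610 intensity units, a 7.53-fold range, where the first probe's Cy-5 signal varied 1.89-fold. The lowest was on C10-434, the array with the lowest median Cy-5 signal, where Cy-5 of this probe was not detected. The probes' ratios did not follow each other over the arrays (r = -0.31, n = 10; -0.11 without C10-434). The exons that each probe covers were not analysed here. A probe for the pseudogene Hmga2-ps1 had a median log2 ratio of -2.02 (from -2.41 to -1.01) and was detected in Cy-5 on 5 arrays. Whether either Hmga2 probe also binds this copy was not tested.

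**Figure D4:**
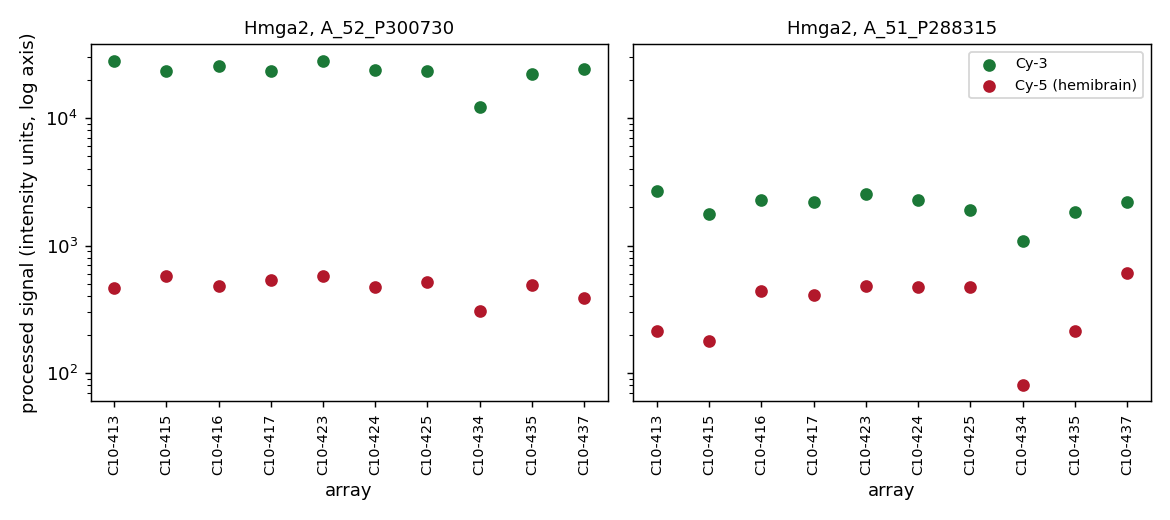
Processed signal (y axis, log scale, intensity units) of the 2 Hmga2 probes in Cy-3 (green) and Cy-5 (red) on each array (x axis). Cy-5 of A_52_P300730 stays between 307 and 580, while Cy-5 of A_51_P288315 runs from 81.0 to 610.

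Hmga1, the family member with broad use in dividing cells, was readable in every hemibrain. By the processed signals it differed least from Cy-3 among the members higher there. With the normexp background correction given below, Igf2bp1 differed less than Hmga1. The Hmga1 probe gave 84263 to 124773 intensity units in Cy-5 and 279484 to 410233 in Cy-3. It was detected in both dyes on all 10 arrays and saturated on none. The log2 ratio was -1.91, -1.65, -1.67, -1.75, -1.84, -1.56, -1.73, -1.61 and -2.03 on the 9 arrays other than C10-434, a 3.32-fold higher Cy-3 signal at the median. This was a moderate position, with 13.0% of all probes lower. On C10-434 the spot was left out because the scanner software marked its Cy-5 pixels as uneven; it read -1.496. The probe was named through an older record, and a near-identical copy, Hmga1b, could share its signal.

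Afp was printed as 10 spots of 1 probe on each array, which gives a measure of spot-to-spot error. Its log2 ratios, as means over spots, were -6.31, -5.42, -5.96, -5.35, -5.45, -6.18, -6.04, -5.42, -5.25 and -6.22. The SD over spots within an array was 0.13 to 0.63 (median 0.38, 8 to 10 spots). The SD of the array means was 0.42, and they spanned 1.07. Over all arrays the median ratio corresponds to a 52.1-fold higher Cy-3 signal, with 0.324% of all probes lower, but it includes arrays on which Cy-5 was at background. The Cy-3 signal was 1492 to 3606 intensity units. The Cy-5 signal was 35.0 to 82.2, and Cy-5 was detected (a share of at least 0.5 of the spots) on 4 arrays, C10-413, C10-417, C10-423 and C10-435. Over these 4 the median log2 ratio was -5.40, a 42.2-fold higher Cy-3 signal, and on the other 6 Cy-3 was at least 11.96-fold to at least 62.0-fold higher.

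Of 10 other products of yolk sac and fetal liver, 1 was below -1 on every array and 3 were above 1. Over all genes these shares were 15.8% and 16.2%. Only 4 of the 10 were detected in at least 1 dye on every array, and of these 3 were above 1 and none below -1. Albumin (Alb), the adult counterpart and chromosomal neighbour of Afp, was detected in neither dye on any array, as was the fibrinogen chain Fgb, and the apolipoprotein Apoa1 was detected on 1 array, in Cy-3. The gene below -1 was Ahsg, which encodes the plasma protein fetuin-A, with a median of -1.55 and Cy-5 detected on 2 arrays. Those above 1 were transthyretin (Ttr, 6.46), transferrin (Trf, 5.32) and Amn (3.80), of which Ttr is also made in choroid plexus and Trf in oligodendrocytes. None of the 4 measured regulators of Afp was past 1 in either direction on every array: Zhx2, the postnatal repressor of Afp, had a median of 1.07, its fellow repressor Zbtb20 of -0.27, Foxa2 of -0.70 and Nr5a2 of 0.20, with Zbtb20 and Foxa2 detected in at least 1 dye on every array.

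The promoters of Afp, Igf2bp3 and Lin28b are shown because they held the motifs searched and stand for the 2 directions seen, Afp and Igf2bp3 higher in Cy-3 and Lin28b higher in Cy-5. They are the 250 bases before the RefSeq start (GRCm38.p6) on the gene's strand, with motif matches in capitals.
Afp (chr5:90490464-90490713, plus strand): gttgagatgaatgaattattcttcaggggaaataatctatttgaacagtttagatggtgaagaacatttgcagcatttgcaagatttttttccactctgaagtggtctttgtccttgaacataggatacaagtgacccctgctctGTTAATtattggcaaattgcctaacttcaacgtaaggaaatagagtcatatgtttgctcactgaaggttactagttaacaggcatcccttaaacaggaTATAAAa
Igf2bp3 (chr6:49214955-49215204, minus strand): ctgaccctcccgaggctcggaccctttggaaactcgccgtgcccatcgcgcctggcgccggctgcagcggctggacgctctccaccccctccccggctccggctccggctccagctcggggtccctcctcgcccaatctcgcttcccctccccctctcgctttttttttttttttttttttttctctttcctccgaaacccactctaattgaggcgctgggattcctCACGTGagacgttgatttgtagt
Lin28b (chr10:45470202-45470451, minus strand): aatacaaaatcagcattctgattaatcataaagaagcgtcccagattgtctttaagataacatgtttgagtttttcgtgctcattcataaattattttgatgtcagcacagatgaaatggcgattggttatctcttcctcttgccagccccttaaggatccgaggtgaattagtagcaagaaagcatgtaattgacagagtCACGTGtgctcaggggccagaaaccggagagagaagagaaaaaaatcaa
The motifs were the E-box CACGTG, to which MYC proteins can bind, the TATA box TATAAA and the HNF1 half-site GTTAAT, searched on both strands. In Afp, TATAAA began 7 bases and GTTAAT 105 bases before the RefSeq start. Of 32851 promoters of the same length, 12.4% and 6.43% held these letters. Whether the TATAAA match at this position acts as a TATA box was not tested. Igf2bp3 and Lin28b each held 1 CACGTG, at 23 and 49 bases before the start, which 6.02% of promoters held. These 2 genes lay on opposite sides of a ratio of 0. None of the 3 motifs was found in the promoters of Igf2bp2, Lin28a, Hmga1 or Hmga2, and the promoter of Igf2bp1 was not analysed here. CG dinucleotides numbered 40 in Igf2bp2, 34 or 35 in Hmga1, 21 in Igf2bp3, 8 in Hmga2, 7 in Lin28a, 6 in Lin28b and 1 in Afp, against a median of 6 over all promoters. Members higher in Cy-3 thus included both the most CG-rich and the most CG-poor of these promoters.

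Most genes for the enzymes that make and tune let-7 were not past a log2 ratio of 1 on every array. Of 10 measured genes for let-7 processing, 1 was below -1 on every array and none above 1, against 15.8% and 16.2% of all genes. Their list median was -0.99. The exception was Ago2, the slicing Argonaute, at a median of -2.29. Drosha, which makes the first cut in the nucleus, had a median of 0.91 and Dicer1, which makes the second, of -0.94. Tut4 and Tut7, the uridylases that LIN28 recruits to let-7 precursors, had medians of -1.20 and -0.94, and Dis3l2, which degrades the tailed precursors, of 0.42. All 10 were detected in both dyes on every array.

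Of 12 other known let-7 targets measured, 2 were below -1 on every array, 1 was above 1 and 9 were neither, with a list median of -1.04. These counts were near the shares over all genes (15.8% and 16.2%). Those below were the transcription factor Myc (-4.29, 19.6-fold at the median) and the cell cycle phosphatase Cdc25a (-2.88). Mycn, the Myc paralogue, was the opposite at 3.01, an 8.03-fold higher hemibrain signal. Nras (-0.92), Igf1r (-1.08) and Ccnd2 (-1.01) were among the others. Of 5 measured mRNAs known to be bound by IGF2BP proteins, Myc and the hyaluronan receptor Cd44 (-2.62) were below -1 on every array, and Igf2, the mRNA from which the family has its name, had a median of 0.90 (list median -0.86).

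Within the larger group of HMG proteins, 4 of 7 other genes were below -1 on every array and 1 was above 1. Over all genes these shares were 15.8% and 16.2%. The list median was -1.10. Hmgb2, which is known from dividing cells, was lowest at -4.53, followed by Hmgn5 at -2.99, whereas Hmgn1 (-1.16) and Hmgn2 (-1.10) lay just past the limit and Hmgn3 was at 1.29. Hmgb1 and Hmgb3 had medians of -0.32 and -0.08. After loess normalisation within each array, 2 of the 7 were below -1 on every array.

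Stem cell and other oncofetal genes lay on both sides of 0. Of 9 pluripotency genes, 2 were below -1 on every array and 1 was above 1, near the shares over all genes (15.8% and 16.2%). Their list median was -0.45 over the 7 detected in at least 1 dye on every array. Those below were Dppa4, which was detected in Cy-3 on all arrays and in Cy-5 on none, and the DNA methyltransferase Dnmt3b (-3.17). The one above was Sox2, also a neural progenitor and glial gene, which was detected in Cy-5 on all arrays and in Cy-3 on none. Sall4 (0.02), detected in both dyes on all 10 arrays, lay near 0. Pou5f1 (-0.02) did too, but it was detected in Cy-3 on 8 arrays and in Cy-5 on 6, which limits the reading of its ratio. Of 6 other oncofetal genes, Dlk1 (-3.24) and Plac1 (-2.18) were below -1 on every array and Gpc3, a heparan sulphate proteoglycan of fetal liver and liver tumours, was above 1, with Cy-3 detected on 1 array. The list median was -0.47 over all 6 genes and 0.90 over the 5 detected in at least 1 dye on every array. The gene left out of the second value was Peg10, with a median of -1.85, Cy-3 detected on 7 arrays and Cy-5 on 1.

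**Figure D5:**
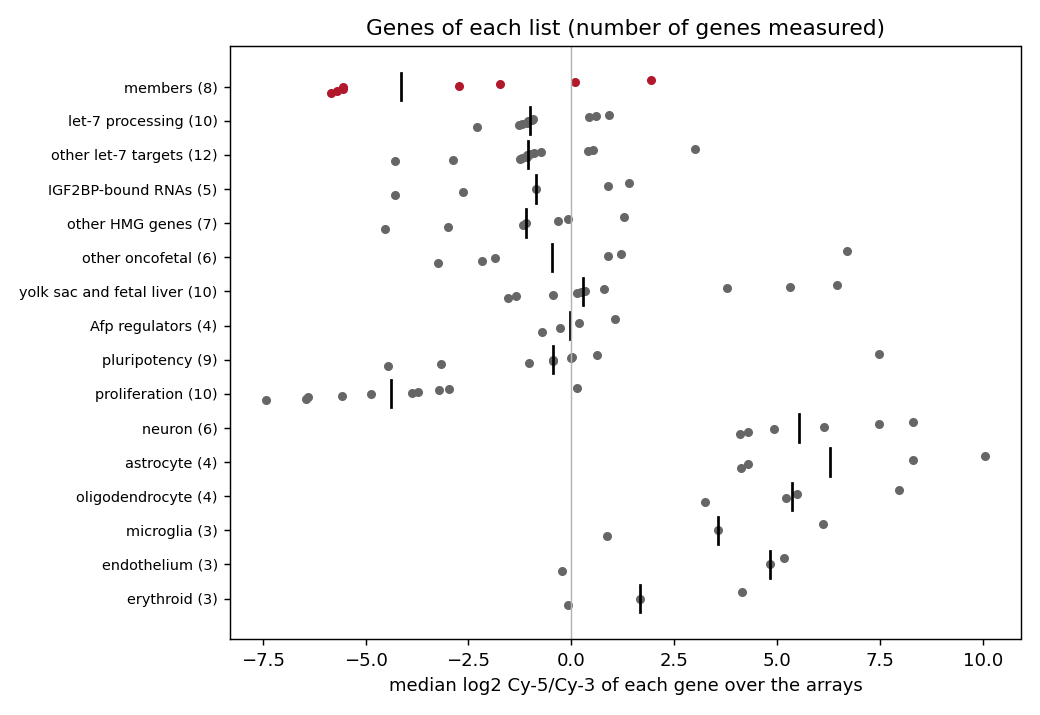
Median log2 Cy-5/Cy-3 over the arrays (x axis) of each gene (points) by list (rows, number of genes measured in brackets), with the list median as a black bar and members in red. The members span both sides of 0 as most lists do, while 9 of 10 proliferation genes lie to the left and all neuron, astrocyte and oligodendrocyte genes to the right.

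Of the cell division genes, 9 of 10 lay on the side of the Igf2bp, Hmga and Afp genes. All 10 were detected in Cy-3 on every array. Their medians ran from -2.98 for the replication helicase gene Mcm5 through -3.22 for the kinase Cdk1 to -6.40 for the cycling-cell marker Mki67, and further for Top2a and Ccnb1, whose Cy-5 was detected on 9 arrays and on 1. The kinase gene Bub1 was at 0.14. Their part in the members' ratios was not tested. In whole tissue, fewer cells of a type and less RNA per cell cannot be told apart.

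Because the arrays lay on 4 slides, the members were compared between the 2 slides with 4 arrays each (limma on all probes, Benjamini-Hochberg adjustment). Of 40858 probes, 31 differed between the slides at an adjusted p under 0.05 (0.0759%), and none of the 14 member probes did, with a lowest adjusted p of 0.432. The 31 fell to 18 without C10-423, to 2 without C10-415 and to 0 without any of the other 6 arrays. At an unadjusted p under 0.05 there were 2 member probes, against 9.95% of all probes. Igf2bp2 was at -6.01 on the first slide and -5.64 on the second, a difference of 0.38 ± 0.15 (SE; limma adjusted p = 0.432), and Igf2bp1 probe A_52_P620742 differed by -0.49 ± 0.21 (SE; limma adjusted p = 0.495). On the Cy-3 signal alone, 6703 of the 40858 probes differed, among them 1 of the 14 member probes. It was Igf2bp3 A_51_P302336, which differed by -0.13 ± 0.036 (SE; limma adjusted p = 0.0462). No member ratio could be called different between the slides with 4 arrays each.

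Of the members, 3 were bright enough in both dyes on all arrays for their pattern over the mice to be matched with other genes. Over 10 arrays and 10532 genes, the log2 ratio of Igf2bp1 was most like those of Acaa1a (Pearson r = 0.974), H1f4 (0.973) and Golga7b (0.971). Hmga2 (A_52_P300730) was most like Micu3 (0.981), Saysd1 (0.976) and Igsf3 (0.975). Hmga1, over 9 arrays, was most like Tmem120a (0.954), Nsmf (0.951) and Elmo2 (0.945). The genes so matched had median ratios from -4.57 (H1f4) to 5.31 (Golga7b), so likeness over mice did not follow the direction against Cy-3. The points share their array, dye balance and Cy-3 RNA, and these correlations are a description.

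The size of the ratios, and the counts of probes past a log2 ratio of 1, depended on how background was handled. With normexp background correction the gene medians were -4.11 for Igf2bp2, -2.85 for Afp, -4.68 for Hmga2 and -2.84 for Igf2bp3. They were -1.76 for Igf2bp1, -2.08 for Hmga1 and 0.99 for Lin28b. Igf2bp1, not Hmga1, then differed least among the members higher in Cy-3. Of the 14 probes 2, not 11, were below -1 on every array, and 0, not 1, above 1. The share of all probes past these limits was not computed with normexp.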

How the data were processed

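RNA of 10 mouse hemibrains (Cy-5) was hybridised with a second RNA (Cy-3) to Agilent whole mouse genome arrays. Per the file headers, the deposited intensity values were read with Feature Extraction 10.10.1.1, which subtracted background, removed spatial trends, corrected dye bias by linear and lowess scaling, and put a small surrogate in place of signals at background. The deposited log10 ratio of the same signals was not used for values, because the software sets it to 0 where both dyes are at background. The study's methods name GeneSpring with LOWESS. The table of log2 values that the authors deposited with the arrays was, within 0.001 for 100% of its probes, the log2 of the same processed signals (median per array from -0.05 to 0.10), so it is no independent check.

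The log2 ratio of the processed signals was taken per spot, outlier-flagged spots were left out and spots of a probe were averaged. Control spots were left out, which leaves 43379 of 45018 spots. Genes were named through RefSeq records (66.1% of probes named), and the brightest probe stands for a gene. A probe counts as past the fold when its ratio is below -1, or above 1, on every array with a value, with at least 9 such arrays. A probe is detected in a dye on an array when at least a 0.5 share of its spots is flagged well above background. Slides, taken from the headers, were compared with limma 3.58.1 in R 4.3.3, tested on simulated data first. Array number limits the precision.

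Genes named are the 8 members with all probes, the genes of 15 lists of related pathways and cell type markers (96 of 102 entries measured), and, for each member whose brightest probe is detected in both dyes on all arrays, the 3 genes with the highest Pearson correlation. Members and lists were chosen with earlier results of these data known, and some genes of the let-7 target list are not reported here and are left out of its counts. Alternatives were loess, median centring, normexp, a floor, the deposited table, other folds and flags, other probes and leaving out each array.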

Additional observations from a re-analysis of the deposited data

Results flagged for a closer look

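Of 42 sets of 10 array values tested (ratio and both dyes of 14 probes), 15 had 1 array standing apart by the gap to its nearest neighbour. Chance gives about 1 in 20 for independent sets. These sets were not independent: the dye signals were not scaled between arrays, and 13 of the 15 were on C10-434. On C10-434 the log2 Cy-3 signal was the lowest and apart from the other 9 arrays for 11 probes: for Igf2bp1 it was 10.8 (A_51_P497113), 10.3 (A_52_P295950) and 8.09 (A_52_P620742), for Igf2bp2 12.1, for Igf2bp3 10.4 (A_51_P302336), 10.2 (A_52_P508974) and 8.50 (A_52_P271232), for Lin28b 5.13 (A_52_P676861), for Hmga2 13.6 (A_52_P300730) and 10.09 (A_51_P288315), and for Afp 10.5. On the same array the log2 Cy-5 signal was the lowest for Igf2bp2 at 6.44 and for Lin28b (A_52_P676861) at 6.48. The log2 ratios of these probes on C10-434 did not stand apart. Without C10-434 the median ratios were -2.85 for Igf2bp1, -5.85 for Igf2bp2, -5.66 for Igf2bp3, 1.959 for Lin28b, -5.61 for Hmga2 and -5.96 for Afp.

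The ratio of Lin28a was 1.73 on C10-423, against -0.92 to 0.37 on the other arrays, with both dyes at background. The log2 Cy-3 signal of the second Lin28b probe (A_52_P532355) was 6.49 on C10-424, the 1 array on which it was detected in Cy-3, against 3.34 to 4.97 elsewhere.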

How the results depend on the processing

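Of 215 recomputed values, 178 were within the limits set and 37 moved. Lin28a, detected in neither dye, turned sign with loess (-0.11) and the floor (-0.01); no other member median did. Leaving out any 1 array left 11 member probes below -1 and 1 above 1. With normexp 2 probes were below -1 on every array and 0 above 1, and with a floor and offset 0 were above 1, as at a log2 limit of 2; the cause was not tested. With the floor the gene medians were -4.53 for Igf2bp2, -3.48 for Afp, -4.99 for Hmga2 and 1.15 for Lin28b. By the positive-and-significant flag 8 member probes, not 4, passed in Cy-5 on all arrays. By the mean over probes Hmga2 was at -4.02, Igf2bp1 at -3.10 and Lin28b at 1.65. After loess 2 other HMG genes and 0 yolk sac and fetal liver genes were below -1 on every array. Keeping the Hmga1 spot of C10-434, and taking only arrays with both dyes detected or only list genes detected on every array, were tried after seeing the data; the first 2 moved no member median beyond the spread of the arrays.

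Between the slides 31 probes were called, 0 with normexp (1136 at an unadjusted p under 0.05), 0 with the floor (3085), 80 among detected probes, 6703 for Cy-3 alone and 1694 for Cy-5 alone. Leaving out 1 array gave 0 to 18 calls by limma. No member ratio was called under any of these settings, with a lowest adjusted p of 0.224 without C10-424; on Cy-3 alone 1 member probe was called. No paired analysis was possible because the labels put no array in a group. Dim signals, near the background in Cy-5 for Igf2bp3, Afp and the second Lin28b probe, limit the precision of their ratios.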

Other observations

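The Cy-5 signal of the second Hmga2 probe (A_51_P288315) had a gap between 215 and 409 intensity units: it was 81.0 on C10-434, 180 on C10-415, 215 on both C10-413 and C10-435, then 409 on C10-417, 444 on C10-416, 470 on C10-425, 474 on C10-424, 481 on C10-423 and 610 on C10-437. The Cy-3 signal of the same probe ran from 1087 to 2703. Among 10532 genes, chosen for a match after this spread was seen, those most like its log2 ratio were Bcor (Pearson r = 0.889), Erlin1 (0.864) and Selenok-ps1 (0.838), and none of these was among the genes most like the first Hmga2 probe.

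Genes that hold a let-7 hairpin in their span were looked up after the members' values were seen. Mir100hg, which contains Mirlet7a-2, had a median log2 ratio of -1.76 (from -2.81 to -1.10) and was detected in both dyes on all 10 arrays. Wdr82, at Mirlet7g, had medians of 0.70 and -0.37 by its 2 probes, and Spaca6, at Mirlet7e, of 1.38. Huwe1, which holds Mirlet7f-2 and Mir98, had a median of 0.71 by its brightest probe (A_51_P355375) while its other 4 probes had medians from -2.29 to -0.79. These probes measure long transcripts, not mature let-7. Within the members, Igf2bp1 contains Mir3063 and Hmga2 contains Mir763.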
